A study of Mus musculus with 2 samples.

Results

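Keratins are the proteins of the intermediate filaments of epithelial cells, and their genes were followed in 2 cultures from mouse dermis, a tissue of mesenchymal origin. The members were the genes of the deposited tables whose symbol is Krt followed by a digit, which gave 25 of the 17431 genes with a read, 17 of them with a read in fibroblasts and 23 in skin-derived precursors. Both cultures came from the dermis of BALB/c mice, and poly(A) RNA was sequenced as 1 library per cell type. The fibroblasts, from mice at postnatal day 3, were kept in DMEM and 10% fetal bovine serum. Skin-derived precursors (SKPs), multipotent dermal cells selected by growth factors, came from mice at postnatal day 4 and were grown in DMEM/F12 with 2% B27 supplement and the growth factors FGF2 (40 ng/ml) and EGF (20 ng/ml). Cell type, medium and age cannot be told apart in this design. The labels do not give the number of animals, a sort or the passage. With 1 library per cell type no test between cell types exists, and every difference below is one between these 2 libraries, without a replicate check.

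A keratin filament is built from pairs of 1 acidic type I and 1 basic type II chain, and each epithelial layer has its own pairs. Krt8 and Krt18, with Krt7, Krt19 and Krt20, are the keratins of simple epithelia. Krt5 and Krt14 form the filaments of basal keratinocytes, and Krt1 and Krt10 replace them in the suprabasal layers of the epidermis. Krt6a, Krt6b, Krt16 and Krt17 are low in resting epidermis between hair follicles, and they are induced by wounding and in dividing or inflamed keratinocytes. The hair keratins build the hair shaft and its inner root sheath. Mesenchymal cells carry vimentin filaments in place of keratin.

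Keratin genes are close relatives, so the sequences come first. To see how far reads could be assigned, every 49-base window, the length of a read, of 1 transcript per keratin was matched against all GENCODE transcripts with at most 2 mismatches, the number allowed in the authors' mapping. The sets below are coding windows, shown as examples with the fewest mismatches between the genes named and credited to GENCODE vM21 (GRCm38), written 5′ to 3′. Capitals mark bases that differ from the first sequence of a set. The first set is identical in the inducible keratins Krt6a and Krt6b, and the second in 3 type I keratins.
Krt6a: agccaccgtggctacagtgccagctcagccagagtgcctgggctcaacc
Krt6b: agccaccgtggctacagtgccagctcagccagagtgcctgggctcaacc
Krt14: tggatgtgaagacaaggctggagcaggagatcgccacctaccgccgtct
Krt16: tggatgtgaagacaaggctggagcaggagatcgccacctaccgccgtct
Krt17: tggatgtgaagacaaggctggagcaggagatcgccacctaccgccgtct
A read from either set cannot be placed in 1 gene. Krt14 and Krt19, which differed in opposite directions between the libraries, share at best a window with 1 mismatch.
Krt14: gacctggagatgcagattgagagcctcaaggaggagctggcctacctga
Krt19: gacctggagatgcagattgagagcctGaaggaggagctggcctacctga

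Of the windows of Krt6a, 62.2% occurred without a mismatch in another gene and 72.5% with at most 2. The most frequent partner was Krt6b, at 61.7% of the windows. For Krt16 the shares were 38.2% and 67.6%, with the annotated pseudogene Gm11597 and Krt14 as the main partners, and for Krt14 they were 14.97% and 49.2%, with Krt16 and Krt17. Krt8 had 29.9% and 48.8%, nearly all from its pseudogene Krt8-ps. Krt5 (12.4% and 16.9%), Krt17 (4.39% and 21.2%) and Krt18 (0.864% and 24.5%) shared less exact sequence. Krt19 (0% and 3.66%), Krt79 (0% and 0.586%) and Krt10 (2.54% and 3.08%) were nearly free of copies, so reads of these members could be placed almost throughout. Krt7 had 0% and 1.35%, but the transcript matched was 642 bases long against 1602 in the deposited tables. Krt80 had 6.37% and 6.70%, on a matched transcript of 2811 bases against 1774. The transcript matched for Krt77, a member with fewer reads, was also longer (2931 bases against 1719). Among the 11 keratins with 20 reads or more in either library, Krt6a, Krt16 and Krt14 had the largest shares on both measures. Of the members with fewer reads, Krt6b had 50.4% and 70.5%, Krt12 42.3% and 43.6%, Krt31 28.5% and 55.9%, and Krt33b 24.9% and 54.7%.

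**Figure D1:**
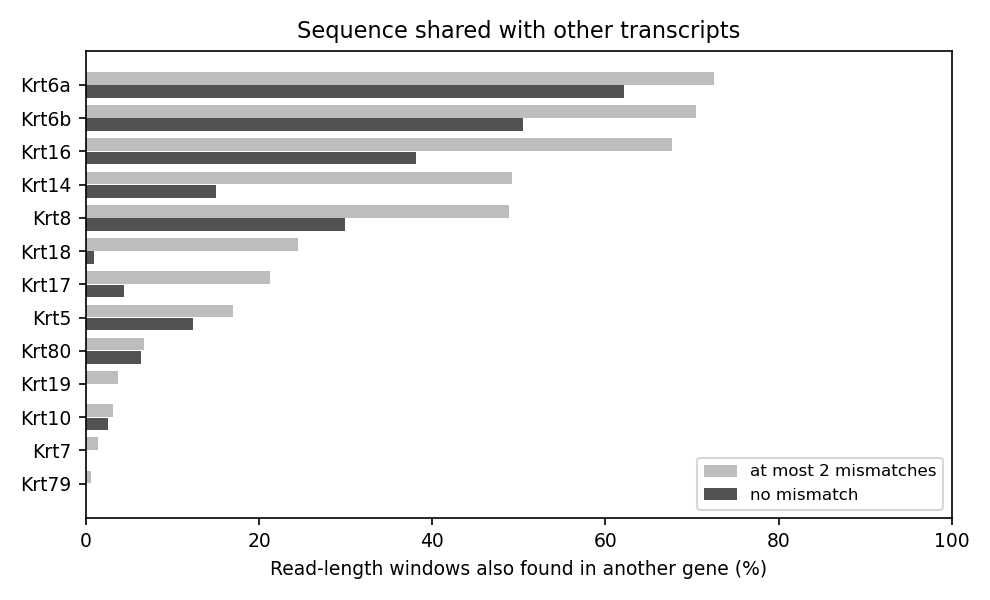
Share of 49-base windows of each keratin transcript (x axis, percent) that also occur in another gene, with no mismatch (dark bars) and with at most 2 mismatches (light bars), for the 11 keratins with 20 reads or more in either library and for Krt6b and Krt8. Krt6a has the longest bars (62.2% and 72.5%), and Krt79 has 0% without a mismatch.

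The coverage column of the deposited tables, the share of a gene's length under reads, shows how the reads lay on these genes. In the SKP library 53.3% of Krt6a was covered by 252 reads, whereas the median was 89.5% over 1404 genes with a similar number of read bases per base of length, and 3.28% of those genes had a lower value. Windows of Krt6a with no exact copy elsewhere reach 49.7% of its transcript. Coverage of Krt16 was 76.3% beside 76.7% reached in that way, and coverage of Krt14 was 92.1% beside 96.9%. With copies of up to 2 mismatches also set aside, the reach was 37.5%, 51.6% and 74.9%, below the observed coverage in each of the 3 genes. Krt17 (97.5%), Krt18 (88.4%) and Krt79 (58.1%) were each covered above the median of genes of similar depth. Krt10, with few copies, had 50.2% against a median of 62.6%, and 13.8% of genes of similar depth had a lower value. Krt5 had 85.7% against 93.3%, and 19.4% had a lower value. The part of shared sequence in these coverages was not tested. RPKM (reads per kilobase of gene, scaled to the counted reads of the library) divides by the whole length, so the values of Krt6a below are per full length and not per length that a read could be assigned to.

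**Figure D2:**
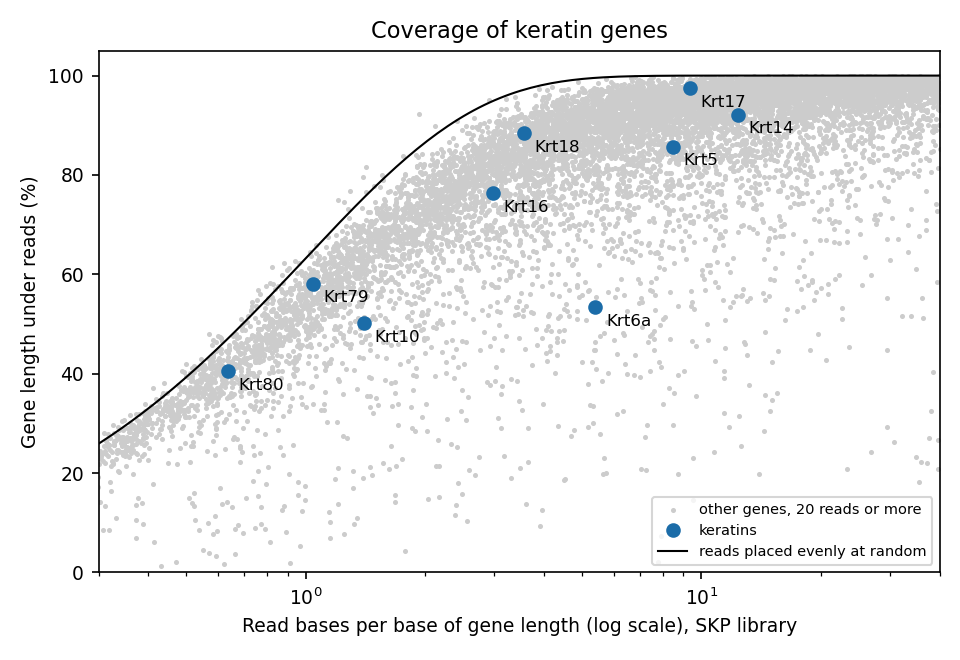
Gene length under reads (y axis, percent) against read bases per base of gene length (x axis, log scale) in the SKP library, for keratins with 20 reads or more (blue, named) and all other genes with 20 reads or more up to a depth of 40 (grey); the line is the value for reads placed evenly at random. Krt6a, at 53.3%, lies well below the bulk of genes of its depth, and Krt17, at 97.5%, lies above most of them.

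Keratin reads were rare in both libraries. The libraries held 23374716 reads (fibroblasts) and 22981183 (SKPs), of which 81.7% and 85.1% were mapped. Keratins took 281 reads in fibroblasts, or 0.00153% of the reads counted in genes (0.00135 to 0.00172), and 1774 in SKPs, or 0.00936% (0.00893 to 0.00981). All intervals given in parentheses are 95% exact counting intervals (Clopper-Pearson for shares and ratios, Poisson for levels) and cover counting error only, since PCR copies are not independent molecules. Scaled to the counted reads, their sum in SKPs was 6.13 times that in fibroblasts (5.40 to 6.98). For scale, the vimentin gene Vim stood at 1573 RPKM in SKPs and 2162 in fibroblasts, while Krt14, the keratin with the highest level in either library, reached 13.4 RPKM in SKPs. In that library 5057 genes stood above Krt14, and in fibroblasts 10585 genes stood above Krt19, the highest keratin there.

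The make-up of the keratin reads differed between the libraries. Simple keratins held 42.7% (36.8 to 48.7) of the keratin reads of fibroblasts and 8.29% (7.05 to 9.67) of those of SKPs. Basal keratins held 22.8% (18.0 to 28.1) and 45.3% (43.0 to 47.7). The inducible keratins, counted here with the suprabasal group, held 13.5% (9.75 to 18.1) and 37.1% (34.9 to 39.4). Keratins of the differentiated epidermis held 6.76% (4.12 to 10.4) and 4.28% (3.39 to 5.33), which overlap. Scaled to the counted reads of each library, the simple keratins were nearly level, with 120 fibroblast and 147 SKP reads (1.19-fold, 0.929 to 1.53). On the same scale basal keratins were 12.2-fold higher in the SKP library (9.45 to 16) and inducible keratins 16.8-fold (12.1 to 24.0).

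**Figure D3:**
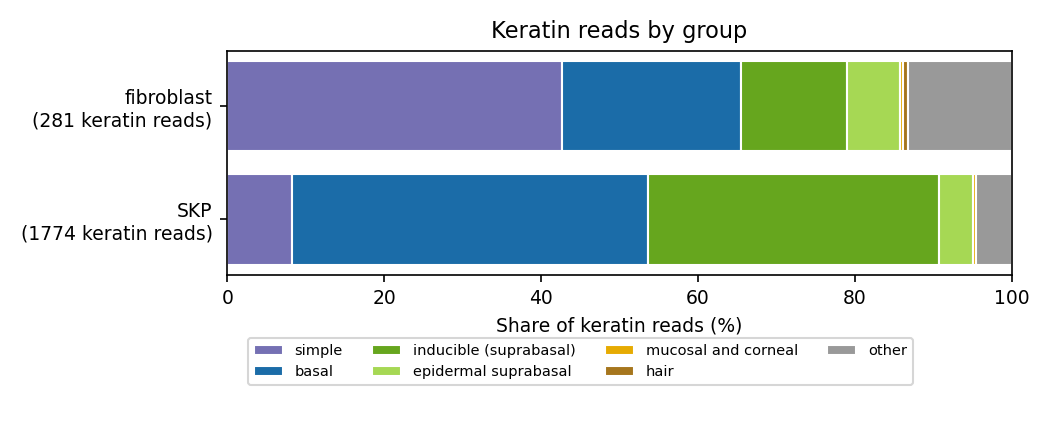
Share of keratin reads by group (x axis, percent) in each library, which held 281 and 1774 keratin reads. Simple keratins take the largest block in fibroblasts (42.7%), and basal (45.3%) and inducible (37.1%) keratins fill most of the SKP bar.

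A gene counted as expressed at RPKM 1 or more with 20 reads or more in either library, and was called higher or lower from a 2-fold difference upward, provided that the interval left out equality. Of the 25 keratins 11 were expressed, of which 8 were called higher in SKPs, 2 lower and 1 neither, where 12.1% of all 12053 expressed genes were higher and 6.41% lower. The 8 keratins met the limits in the SKP library alone and the other 3 in the fibroblast library alone, and 0 met them in both, so the limits themselves favoured the direction in which each was found and the counts support nothing. At 4-fold 7 were higher and 1 lower (5.85% and 2% of all expressed genes), and at 8-fold 6 and 1 (3.4% and 0.971%). With the limits applied to the mean of both libraries, 7 were higher and 0 lower (10.7% and 5.75%), and Krt19 and Krt7 were no longer counted as expressed. Without any limits 11 were higher and 2 lower (12.6% and 6.22%). Members were therefore described by their own values. Krt18, Krt5, Krt14, Krt17, Krt6a, Krt16, Krt10 and Krt79 were the higher ones, Krt19 and Krt7 the lower ones, and Krt80 was neither.

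Among the simple keratins, the type I gene Krt19 (gene ID 16669) had 45 reads in fibroblasts and 3 in SKPs, or 1.62 and 0.105 RPKM, and was 15.4-fold higher in fibroblasts (4.96 to 77.7). The type II gene Krt7 (110310) had 43 and 13 reads, or 1.46 and 0.428 RPKM, and was 3.41-fold higher in fibroblasts (1.80 to 6.90). Both are keratins of ducts and of other simple epithelia, and they were the keratins with the highest level in the fibroblast library. Krt18 (16668), the type I partner of Krt8, went the other way, with 15 reads in fibroblasts and 102 in SKPs, or 0.582 and 3.84 RPKM (6.61-fold higher in SKPs, 3.82 to 12.2). Krt8 itself had 3 and 15 reads. Its RPKM lay below that of Krt18 by 8.77-fold in the SKP library (5.07 to 16.2) and by 6.45-fold in fibroblasts (1.82 to 34.7). This was so although the proteins pair. With at most 2 mismatches, 48.8% of Krt8 windows and 24.5% of Krt18 windows have a copy elsewhere. Windows without such a copy reach 62.4% of the Krt8 transcript and 97.0% of the Krt18 transcript. The part of shared sequence in this gap was not tested. Krt20, a keratin of the gut lining and of Merkel cells, had 14 reads in fibroblasts and 13 in SKPs (0.902-fold, 0.390 to 2.07), and Krt23 had 0 and 1. On the log2(RPKM + 1) scale the difference for Krt7 was -0.78, which is under 2-fold. With their reads summed, since both are type II chains of simple epithelia, Krt7 and Krt8 were 1.69-fold higher in fibroblasts (1.03 to 2.81).

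Both basal keratins with reads were higher in the SKP library by similar ratios. Krt14 (16664), the type I chain, had 30 reads in fibroblasts and 425 in SKPs, or 0.970 and 13.4 RPKM, a 13.8-fold difference (9.50 to 20.7). Krt5 (110308), its type II partner, had 34 and 379 reads, or 0.843 and 9.13 RPKM, a 10.8-fold difference (7.61 to 15.9). Within a library the partners stood close to each other: the RPKM of Krt14 was 1.46 times that of Krt5 in SKPs (1.27 to 1.68) and 1.15 times in fibroblasts (0.680 to 1.94). Krt15, the third basal keratin and a marker of hair follicle stem cells, was not listed for either library, which counts as 0 reads. For a gene of 1 kb, 3 reads, the number that a count of 0 allows, would be 0.163 RPKM in fibroblasts and 0.158 in SKPs.

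**Figure D4:**
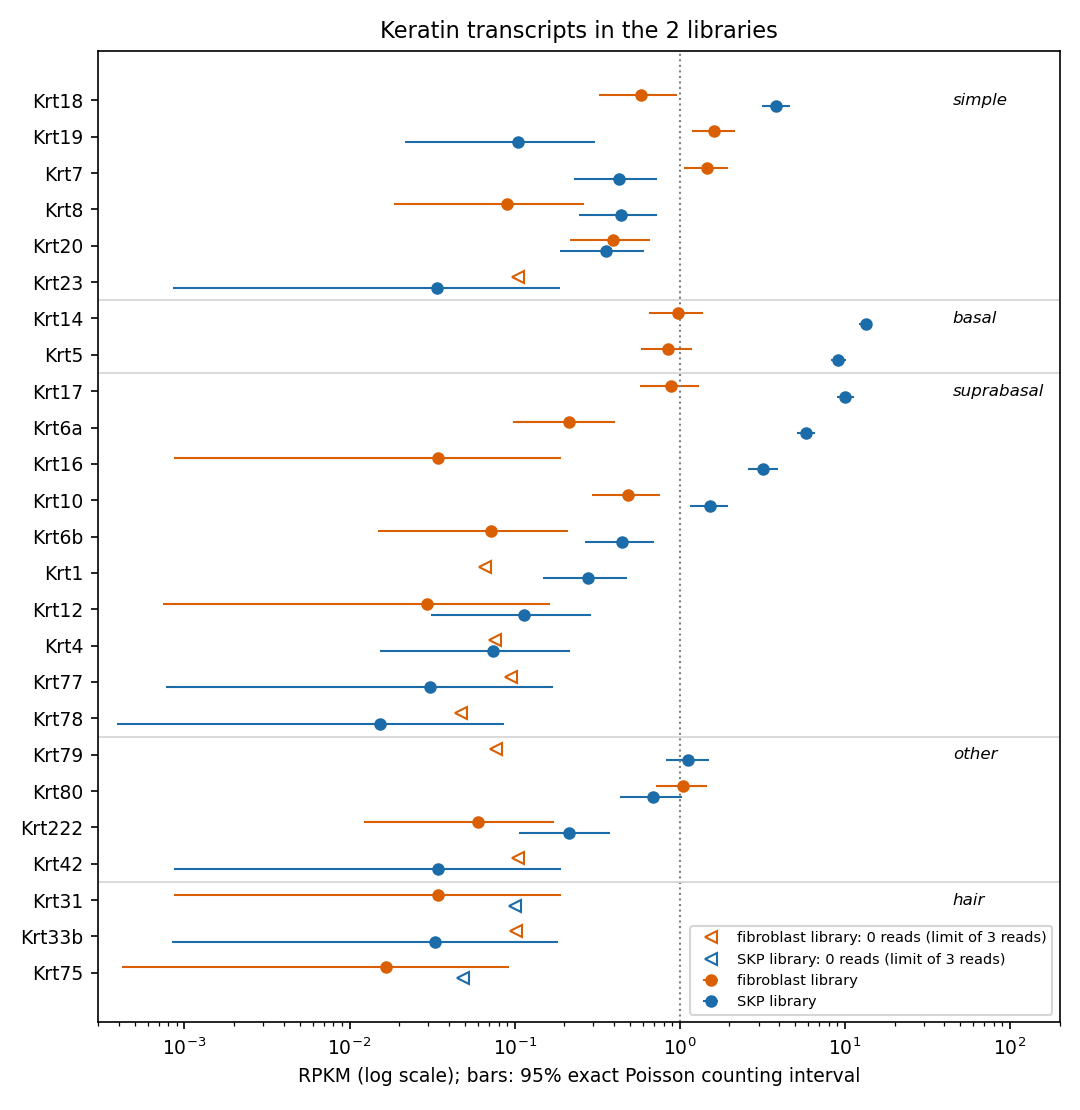
RPKM (x axis, log scale) of the 25 keratins in the fibroblast library (orange) and the SKP library (blue), ordered by group; bars are 95% exact Poisson counting intervals, open triangles mark 0 reads at the level that 3 reads would give, and the dotted line is 1 RPKM. Krt14, Krt17, Krt5 and Krt6a stand at 5.81 to 13.4 RPKM in SKPs and below 1 in fibroblasts, and Krt19 and Krt7 stand above 1 in fibroblasts alone.

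Of the keratins with a read in both libraries, the inducible Krt16 and Krt6a gave the largest ratios. Krt16 (16666) had 1 read in fibroblasts and 96 in SKPs, or 0.0344 and 3.21 RPKM, a ratio of 93.2 with a wide interval (16.3 to 3721). Krt6a (16687) had 9 and 252 reads, or 0.214 and 5.81 RPKM, and was 27.2-fold higher in SKPs (14.1 to 60.2). Krt17 (16667), which is also a keratin of hair follicle epithelium, had 25 and 292 reads, or 0.887 and 10.1 RPKM, an 11.3-fold difference (7.53 to 17.8). Set against each other, the RPKM of Krt17 was 25.8 times that of Krt16 in fibroblasts (4.22 to 1059, on 1 Krt16 read) and 3.14 times in SKPs (2.48 to 3.99), so these ratios differ beyond counting error. The corresponding intervals for Krt17 over Krt6a (1.87 to 10.1 in fibroblasts and 1.46 to 2.06 in SKPs) overlap. Krt6b had 3 and 19 reads, under the limit of 20. Reads of keratins that share sequence were also summed. Krt6a with Krt6b had 12 reads in fibroblasts and 271 in SKPs (21.9-fold, 12.4 to 43.0). Krt14, Krt16, Krt17 and Krt42 together had 56 and 814 (14.1-fold, 10.8 to 18.9). Each of these genes had more reads in SKPs by itself, so the sums could not change the direction. Partners that are not keratins, such as Gm11597, were not in the sums. In the SKP library Krt17 stood at 0.753 times the RPKM of Krt14 (0.647 to 0.877) and Krt6a at 0.637 times that of Krt5 (0.541 to 0.749). Krt17 and Krt6a were thus of the same order as the basal chains there. Krt16 (3.21 RPKM) and Krt6b (0.445 RPKM) stood further below Krt14 (13.4 RPKM) and Krt5 (9.13 RPKM).

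Keratins of the differentiated epidermis were low in both cultures. Krt10 (16661) had 19 reads in fibroblasts and 61 in SKPs, or 0.486 and 1.52 RPKM (3.12-fold higher in SKPs, 1.84 to 5.53). On the log2(RPKM + 1) scale this difference was 0.76, under 2-fold. Its partner Krt1 had 0 reads in fibroblasts and 13 in SKPs. This is 4.21-fold higher with the fibroblast library set to 3 reads (lower limit of the exact interval 2.96). Against the basal chains, Krt10 stood at 0.114 times the RPKM of Krt14 in SKPs (0.0853 to 0.149) and at 0.501 times in fibroblasts (0.266 to 0.920). Krt1 stood at 0.0305 times that of Krt5 in SKPs (0.0161 to 0.0528). Of the mucosal and corneal chains, Krt4 had 0 reads in fibroblasts and 3 in SKPs, and Krt12, which overlaps an annotated antisense gene, had 1 and 4. Krt77 and Krt78 had 1 SKP read each, and Krt2, Krt9, Krt13, Krt24 and Krt76 were not listed.

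Outside these groups, Krt79 (223917), a keratin of the hair follicle opening and sebaceous duct, had 0 reads in fibroblasts and 45 in SKPs (1.12 RPKM). This is 14.6-fold higher with the fibroblast library set to 3 reads (lower limit of the exact interval 11.4). Krt80 (74127), a keratin of differentiating epithelia, had 34 reads in fibroblasts and 23 in SKPs, or 1.04 and 0.684 RPKM, and did not differ beyond counting error (1.52-fold higher in fibroblasts, 0.871 to 2.71). Krt222 had 3 and 11 reads and Krt42 had 0 and 1.

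Hair keratins were all but undetected. The 3 with any read were Krt31 and Krt75, with 1 fibroblast read each, and Krt33b, with 1 SKP read, and another 20 annotated hair keratins were not listed. In all, 27 of the 53 keratin genes of the RefSeq annotation used for names were listed for neither library. Krt88 was listed under an older symbol, outside the rule, with 1 SKP read.

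**Figure D5:**
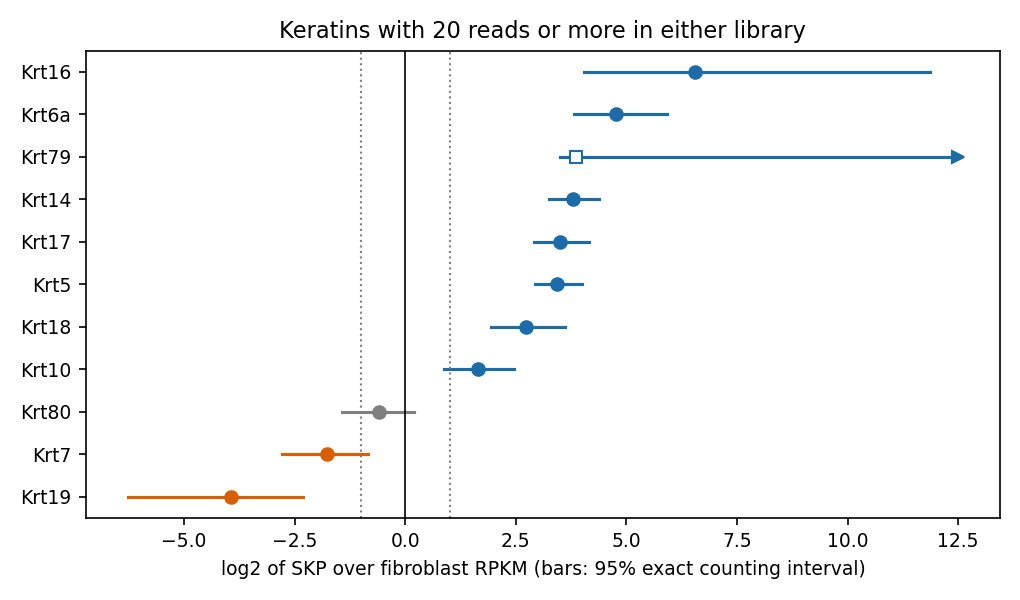
log2 of the SKP over the fibroblast RPKM (x axis) for the 11 keratins with 20 reads or more in either library, with 95% exact counting intervals. Blue is higher and orange lower in SKPs, grey is neither, and dotted lines mark 2-fold. The open square is the ratio at a floor of 3 fibroblast reads, and its arrow marks an interval without an upper limit. Krt79, the open square, and 7 other keratins lie to the right, and Krt7 and Krt19 lie to the left.

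Ordered by RPKM, the SKP library began with Krt14, which stood above Krt17 beyond counting error (1.33-fold, 1.14 to 1.55). Krt17 and Krt5 were not separable (1.10-fold, 0.942 to 1.29), Krt6a was next (Krt5 over Krt6a 1.57-fold, 1.34 to 1.85), and Krt18 and Krt16 followed without separation (1.20-fold, 0.898 to 1.60). In fibroblasts no keratin with 10 reads or more could be told from the next in order, which ran Krt19, Krt7, Krt80, Krt14, Krt17, Krt5, Krt18, Krt10 and Krt20. Over longer steps Krt19 was above Krt14 (1.67-fold, 1.03 to 2.75) and above Krt10 (3.33-fold, 1.91 to 6.04) there, while in SKPs it stood at 0.00786 times Krt14 (0.00161 to 0.0231).

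The order of the genes in the RefSeq table was a further property that the rule did not use. Neighbours such as Krt6a and Krt6b, or Krt14 and Krt16, share sequence, so their reads are not independent. In the type I cluster Krt14, Krt16 and Krt17 follow each other, and all 3 were higher in SKPs, while Krt19, separated from Krt14 by Krt9 alone, was lower. In the type II cluster Krt6b, Krt6a and Krt5 are neighbours with more reads in SKPs. Krt80 and Krt7, at the edge of that cluster, had more reads in fibroblasts, for Krt80 not beyond counting error. Krt18, the 1 type I gene in the type II cluster, lies beside Krt8.

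Other gene lists were read against the same shares of all expressed genes, 12.1% higher and 6.41% lower in SKPs, and with the same reservation about genes that met the limits in 1 library alone. Of 30 keratinocyte markers other than keratins 29 had a row, with a summed level of 11.2 RPKM in fibroblasts and 63.4 in SKPs. Of 17 expressed markers 14 were called higher in SKPs, 0 lower and 3 neither, but 13 of the 17 met the limits in the SKP library alone, so the count supports nothing by itself. Sprr1a, a cornified envelope precursor, had 4 reads in fibroblasts and 262 in SKPs (63.6-fold, 24.6 to 235). The envelope genes Ivl (130 SKP reads) and Sprr1b (37), the marker gene Dmkn (61) and the growth factor carrier gene Fgfbp1 (8) were at 0 in fibroblasts. Lor had 1 read in fibroblasts against 36 in SKPs, and Krtdap 3 against 47. The epithelial adhesion genes Cdh1 (10 reads in fibroblasts against 48 in SKPs) and Epcam (2 against 30) and the basal regulator Trp63 (29 against 94), named after their values were seen, were under RPKM 1 in both. Going against these, Gjb2 had 43 reads in fibroblasts and 7 in SKPs. Sprr1b, Fgfbp1 and Gjb2 fall outside the naming rule given below and were also named after their values were seen. The part of such cells in the keratin ratios was not tested, and in bulk RNA fewer cells of a type and less RNA per cell cannot be told apart. Mesenchymal markers dominated both libraries: all 15 were expressed in both, with a summed level of 14952 RPKM in fibroblasts and 13944 in SKPs, led by Col1a1 and Sparc. Of these, Lum (52.4-fold), Dcn (6.89-fold) and Col3a1 (3.60-fold) were higher in SKPs, Thy1 (0.315-fold) and Col1a1 (0.483-fold) were lower, and 10 were neither.

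Markers of other epithelial cells gave little. Of 9 Merkel cell markers other than keratins 5 had a row, Atoh1, the factor that specifies these cells, was not listed, and Cck alone was expressed (101 RPKM in fibroblasts and 151 in SKPs, neither higher nor lower). Of 15 markers of hair follicle epithelium 12 had a row and 3 were expressed. Hoxc13, an activator of hair keratin genes, had 123 reads in fibroblasts and 20 in SKPs and was 6.33-fold higher in fibroblasts (3.93 to 10.7), where hair keratins had 2 reads. Lgr6, a follicle stem cell receptor, was 3.55-fold higher in SKPs (2.14 to 6.14), and Cux1 was neither.

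Genes whose products work with keratins divided. Of 13 expressed genes of plakins, desmosomes and hemidesmosomes, which anchor keratin filaments, 5 were called higher in SKPs, 1 lower and 7 neither, and 5 met the limits in SKPs alone, 1 in fibroblasts alone and 7 in both. Dsc2, a desmosomal cadherin, was 21.5-fold higher (11.8 to 43.6), the hemidesmosomal integrin gene Itga6 16.4-fold (13.7 to 19.9) and the desmosome protein gene Perp 10.4-fold (6.10 to 18.9). Itgb4, the other integrin gene of the list, had 90 reads in fibroblasts and 140 in SKPs and was neither (1.51-fold, 1.15 to 1.99). It was named after its values were seen. The desmosomal plaque gene Pkp2 had 346 reads in fibroblasts and 12 in SKPs and was 29.7-fold higher in fibroblasts (16.8 to 58.0), as Krt19 and Krt7 were. Plec (67.8 RPKM in fibroblasts and 49.7 in SKPs) and Cd151 (67.9 and 37.3), which also serve cells without keratin, were the most abundant and were neither. Among 9 other intermediate filament genes that were expressed, 4 were higher in SKPs and 0 lower: the neurofilament gene Nefl (147 reads against 1), the lens filament gene Bfsp1 (9.23-fold), the nestin gene Nes (4.48-fold) and the desmin gene Des (2.58-fold), while Vim and Lmna were neither. Of these 9, 3 met the limits in SKPs alone and 6 in both libraries. Of 6 expressed epithelial transcription factors, Tfap2c (89.0-fold, 30.2 to 434), Cebpa (3.02-fold) and Tfap2a (2.80-fold) were higher, Hoxc13 was lower, and Klf4 and Klf5 were neither. Of these 6, 1 met the limits in SKPs alone, 1 in fibroblasts alone and 4 in both. Of a list of 12 genes of the filaggrin family and keratin-associated proteins, 3 had a row (Rptn, Tchhl1 and Tchh), none of them a keratin-associated protein gene, and 0 were expressed. Tchh, which embeds the filaments of the inner root sheath, had 34 reads in fibroblasts and 97 in SKPs.

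In the authors' deposited table, 11 of the 25 keratins passed an FDR of 0.001 and a 2-fold difference, 9 lower and 2 higher in fibroblasts, where 10.5% of its 17431 genes were lower and 4.8% higher. These were the 10 named above as higher or lower, and Krt1. The sources used here do not name that test, and with 1 library per group it compares the reads of these libraries and not the cell types.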

How the data were processed

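Poly(A) RNA of 1 fibroblast and 1 SKP culture was sequenced, and the labelled cell type set each library's group. The deposited counts are whole numbers of reads per gene, per the file headers, and summed to 18406244 and 18949264. Although the header calls them unique, these totals exceed the 14481657 and 14578907 reads that the deposited mapping tables give as having a single match, and the sources used here do not give the counting rule. The deposited RPKM values equal reads scaled by gene length and these totals. The deposited coverage gives, per the file headers, how many percent of a gene's length lie under reads. The authors' comparison table holds the log2 ratio of fibroblast to SKP RPKM, where 0 was replaced by 0.01, with each gene's p-value and FDR. Mapping allowed up to 2 mismatches, per the file headers, and used build mm9, per the submitters' processing notes. The sources used here name no aligner, annotation or strandedness, so antisense genes could not be separated.

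Ratios and exact intervals were computed with scipy 1.17.1, numpy 2.4.6 and pandas 2.3.3 under Python 3.11.15, and matplotlib 3.10.9 drew the figures. A gene with 0 reads in 1 library was set at a floor of 3 reads per library, and no fold is given where the other library had 3 reads or fewer. For a gene of 1 kb, each read adds 0.0543 RPKM in fibroblasts and 0.0528 in SKPs. Read-length windows were matched with bwa 0.7.19 to transcripts of GENCODE vM21, which may differ from the authors' annotation, taking the protein-coding transcript nearest in length. Names and gene order came from RefSeq's annotation of GRCm38.p6, where all 25 gene IDs matched. No p-value was computed. Every keratin with 20 reads or more is named, with up to 4 expressed genes of the largest ratio and 2 of the highest RPKM from each other list. Some further genes of these lists were named outside this rule. The members, groups and lists were chosen with earlier results of these data known.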

Additional observations from a re-analysis of the deposited data

How the results depend on the processing

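The 8 keratins higher and 2 lower in the SKP library were recounted under 8 alternatives each. With RPKM of at least 5 as the limit, 4 were higher and 0 lower. With the limits applied to the mean of both libraries, 7 were higher and 0 lower, and neither Krt19 nor Krt7 was then tested. On the log2(RPKM + 1) scale 7 were higher and 1 lower, at 4-fold 7 and 1, and with paralog sets summed and counted once 6 and 1. Without limits 11 were higher and 2 lower, where 12.6% and 6.22% of all genes were. Size factors and upper quartile scaling shifted all log2 ratios of SKPs over fibroblasts by 0.01 and -0.05. Shifts of this size could not reverse any of the 11 keratins with 20 reads or more. Their log2 ratio nearest to equality was -0.61 (Krt80). Adding 1 to both RPKM values cannot reverse a direction either, so these settings did not check direction. The set of Krt7 and Krt8 was 1.69-fold higher in fibroblasts, under the 2-fold limit, so Krt19 was the 1 lower in that recount. Krt8 alone had 3 fibroblast and 15 SKP reads. Of the Krt7 windows 0.505% matched Krt8, so this sum pools genes that share little sequence. No paired analysis was possible because each group had 1 library, and for the same reason no library could be left out. Depth limits the members with few reads: 14 of 25 had under 20 reads in both libraries, and a change in these below several-fold was not detectable at this depth.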

Other observations

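Genes with a similar symbol that are not keratins were also listed. Krtcap2, a subunit of the enzyme that attaches sugars to proteins, stood at 246 RPKM in fibroblasts and 203 in SKPs (0.828-fold, 0.779 to 0.879), and Krtcap3 had 12 and 13 reads. The keratin-associated protein genes Krtap3-2, Krtap4-16 and Krtap4-2 had 1 read each in SKPs, and Krtap5-4 and Krtap6-2 had 1 read each in fibroblasts. Rab3c, a vesicle trafficking gene on the Merkel cell list, had 128 reads in fibroblasts and 10 in SKPs (13.2-fold higher in fibroblasts, 6.94 to 28.1), at under 1 RPKM in both. The transcription factor gene Gata3 had 41 and 9 reads. These genes were named after their values were seen.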
